A study of Arabidopsis thaliana with 8 samples.

Results

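In leaves of Arabidopsis thaliana, 215 genes had most of their RNA-seq counts outside the annotated coding sequence. They were chosen by a quotient called the coding share below, the counts that fell in coding sequence over the counts that fell in exons, in the sum of the 2 mock RNA libraries. Genes with at least 400 exon counts and a coding share from 0.05 to 0.5 were kept, which were 215 of the 6935 genes at that count and 3.10% of them. The tables held 27172 genes in all. Because the mock RNA counts chose the members, their mock coding shares are given as a description, without a test.

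Plants were 3 weeks old and of ecotype Col-0. Their leaves had received elf18 at 10 µM, a fragment of the bacterial translation factor EF-Tu that is perceived by the receptor kinase EFR, or, as mock, MgCl2 at 10 mM. All plants, mock ones included, carried 35S:uORFsTBF1-LUC, a luciferase reporter driven by the 35S promoter with the leader of the transcription factor gene TBF1. Each treatment had 2 lysates pooled from many plants, and every lysate gave 1 RNA library and 1 library of ribosome footprints, the RNA pieces that ribosomes shield from nuclease, so n = 2 in each of 4 groups.

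A messenger RNA holds a leader before its coding sequence and an untranslated region after it, and a gene's annotated exons span all of these. Ribosomes translate the coding sequence, and in some transcripts they also translate short upstream reading frames in the leader, which can lower the output of the main frame. The coding share thus falls with more reads in leader or tail, and with fewer reads assigned inside the coding sequence, as when copies of a gene share it and a read that matches several copies is dropped or given to 1 of them. The sources used here do not give the handling of such reads or say whether counting used the strand. No genome or transcript sequence was used, so the part of close copies in the shares was not tested, and the values of genes that have them are uncertain.

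Exon counts totalled 11127372 and 15405467 in the elf18 RNA libraries and 15031282 and 7898180 in the mock RNA libraries. Footprint counts on coding sequence totalled 6202819 and 5272725 with elf18 and 4752563 and 6717946 in mock. Replicates were less alike in elf18 RNA than in mock RNA, at r = 0.741 and 0.891 on log2 CPM (counts scaled to library size). The leaf marker RBCS1A had 23945 to 28171 CPM over the RNA libraries, and the root marker PYK10 had 0 counts in each. The guard cell markers MYB60 and FAMA had 0 counts in elf18 RNA library 2 and were detected in the other 3 RNA libraries.

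**Figure D1:**
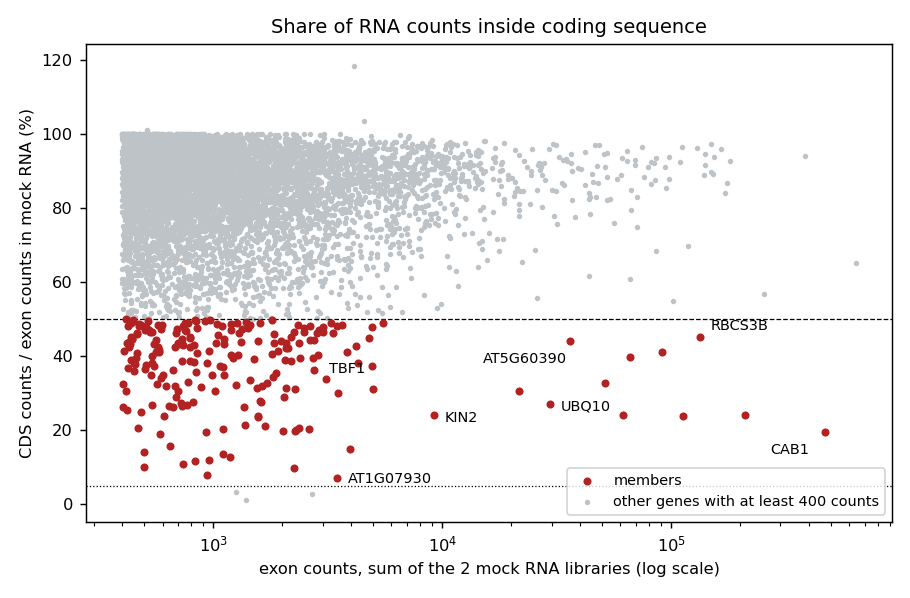
Coding share in mock RNA (vertical axis, %) against the exon counts summed over the 2 mock RNA libraries (horizontal axis, log scale) for the 6935 genes with at least 400 counts, each point a gene. The 215 members, in red, lie between the dotted line at 0.05 and the dashed line at 0.5, and the members with the most counts lie far to the right of most of the others; a few grey points lie above 100% because their coding counts exceed their exon counts.

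The members' mock coding shares ran from 7.13% to 49.9% with a median of 40.7%, against a median of 87.3% over the 6720 other genes at the same count. Pooled over all members, 32.1% and 30.2% of exon counts fell in coding sequence in the elf18 libraries and 28.9% and 30.4% in the mock libraries. Over all other genes in the tables the shares were 85.2% and 87.0% with elf18 and 85.1% and 84.8% in mock. The members took 5.95% and 6.52% of all exon counts with elf18 and 6.90% and 6.69% in mock. Footprints were counted on coding sequence only, where the rule holds the members' mock RNA counts low. Of all RNA coding counts the members took 2.32% and 2.36% with elf18 and 2.46% and 2.51% in mock. Their part of all footprint counts was smaller, at 1.19% and 1.18% with elf18 and 1.24% and 1.28% in mock. This gap lay mainly in 8 photosynthesis genes, named below. Of the members' RNA coding counts these held 140904 of 212127 and 208757 of 303081 with elf18. In mock they held 211181 of 300375 and 112647 of 160903. Of the members' footprint counts they held 37.2% in each elf18 library and 43.2% and 46.7% in mock.

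Counting error is small for most members and not for those near the upper bound. With the 95% Wilson interval of the summed mock counts, which covers counting error only, 170 of 215 members had an interval wholly under 50% and 45 had one that reached it. The nearest inside were AT3G62840 at 49.8% (46.4% to 53.2%), AT5G48335 at 49.8% and AT3G51110 at 49.9%. The nearest outside were AT4G29410 at 50.1% (47.5% to 52.6%), AT2G04520 at 50.2% and AT2G46230 at 50.2%. The shares of these 6 genes lie close together, with no gap at the bound. On the side of the count minimum, AT3G06610 and BIP2 had 403 counts and AT2G19680 409, while AT5G16990 at 396, RLP34 at 394 and AT4G13575 at 392 lay outside. At the lower end AT1G07930 had 7.13% (6.32% to 8.03%), AT5G59690 7.77%, AT1G07920 9.81% and AT1G49032 10.1%, and AT1G07590 (3.25%), AT1G07940 (2.67%) and DEG14 (1.00%) fell below the lower bound.

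The elf18 RNA libraries, which took no part in the choice, gave shares of at most 50% in both libraries for 112 of 215 members, or 52.1%. The same was seen for 53 of 6720 other genes, or 0.789%. Another 66 members were at or under 50% in 1 elf18 library and 37 in neither. The part that stayed low went with depth: it was 43 of 59 members (72.9%) with at least 2000 mock exon counts, 29 of 48 (60.4%) with 1000 to under 2000 and 40 of 108 (37.0%) with fewer. The median gap between replicates was 13.1 percentage points in the elf18 libraries and 6.48 in the mock libraries. AT1G49032 shows how far a thinly covered member could move, with shares of 40.0% and 97.7% in the elf18 libraries and 10.9% and 8.16% in the mock libraries.

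Light-harvesting and Rubisco genes carried most of the members' RNA. The 8 photosynthesis genes among the members were CAB1, CAB2 and CAB3, which encode the chlorophyll a/b-binding protein LHCB1 of the antenna of photosystem II, LHCB2.1 and LHCB2.2 for the antenna protein LHCB2, and RBCS1B, RBCS2B and RBCS3B for the small subunit of Rubisco, the enzyme that fixes carbon dioxide. They held 76.2% of the members' mock exon counts. CAB1, the member with the most counts, had 17047 and 20533 exon CPM in the elf18 libraries and 20704 and 19844 exon CPM in the mock libraries. Its coding share was 20.4% and 20.3% with elf18 and 19.2% and 20.0% in mock, so the 4 libraries lay within a narrow range. Without these 8 genes the pooled share of the members was 39.9% and 39.0% with elf18 and 36.5% and 37.8% in mock.

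Each of these families also held relatives outside the members. The rule itself sets their mock shares above those of the members, as none lay under the lower bound. CAB1, CAB2 and CAB3, which follow one another on the chromosome in the locus table, had mock shares of 19.5%, 24.0% and 23.9%. LHB1B1 and LHB1B2, the other 2 LHCB1 genes, had 69.8% and 56.9%. LHCB2.1 and LHCB2.2 had 41.2% and 39.7%, and the third gene of that family, LHCB2.3, had 84.8%. RBCS1B, RBCS2B and RBCS3B, again neighbours, had 32.8%, 24.0% and 45.0%, while RBCS1A, which lies elsewhere, had 65.3%. Each of these families encodes proteins that are nearly alike, and the part of multiply matching reads in their shares was not tested.

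Tubulin and ubiquitin genes were likewise split between members and relatives, with the order of their mock shares again set by the rule. Alpha-tubulin, which pairs with beta-tubulin to build microtubules, had 5 of 6 genes among the members: TUA2 to TUA6 had mock shares from 20.1% to 33.9%, and TUA1 had 90.0%. TUA3 and TUA5 encode the same protein, as do TUA2 and TUA4. In the elf18 libraries TUA3 had shares of 19.2% and 17.1%, against 31.9% and 30.6% in the mock libraries. TUA2 and TUA4 were also lower in both elf18 libraries than in both mock libraries. TUA5 went the other way, at 27.7% and 25.9% with elf18 and 22.4% and 19.4% in mock, and the values of TUA6 overlapped. Of 8 beta-tubulin genes, the neighbours TUB2 (32.0%) and TUB3 (26.1%), which also encode the same protein, were members, and the other 6 had 74.8% to 88.8%. Of 9 ubiquitin genes at the minimum, UBQ3, UBQ4, UBQ10, UBQ11 and UBQ14 were members. These are polyubiquitin genes, which encode head-to-tail repeats of ubiquitin, and had mock shares from 27.2% to 38.7%. UBQ1, UBQ5, UBQ6 and UBQ7, which join ubiquitin or a like protein to another protein, had 56.8% to 67.8%. UBQ10, the most abundant of the 5, had shares of 26.5% and 30.7% with elf18 and 27.1% and 27.2% in mock.

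**Figure D2:**
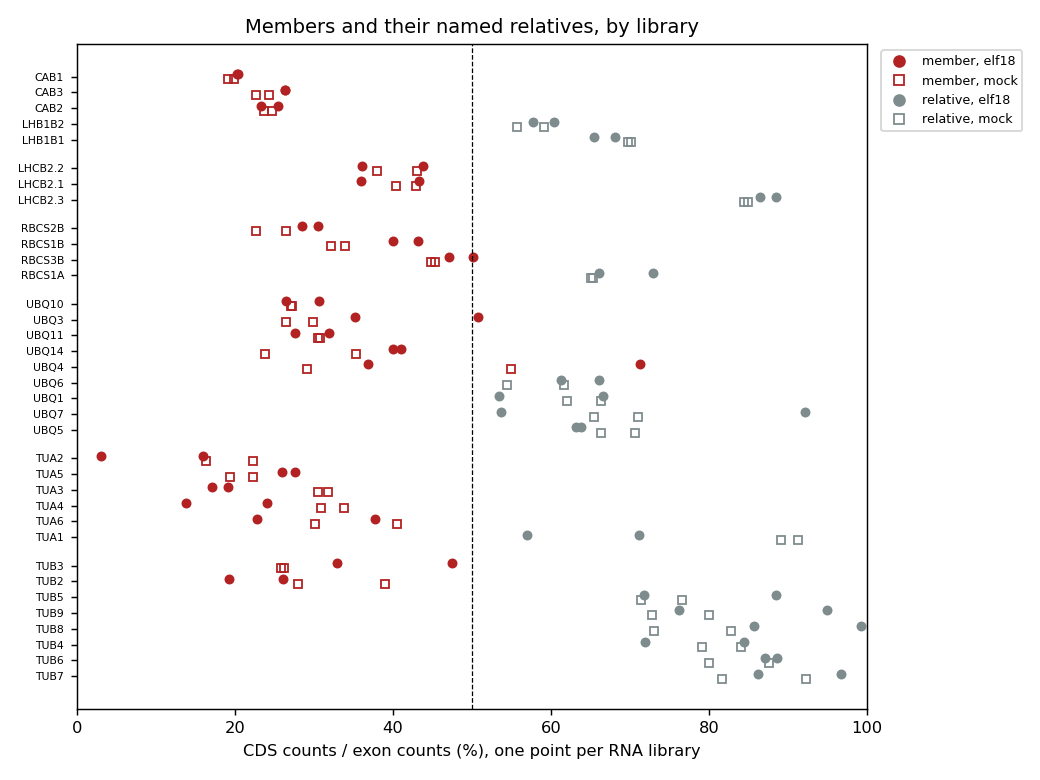
Coding share (%) in each RNA library for the genes of 6 families that reach 400 mock exon counts, in blocks for LHCB1, LHCB2, RBCS, ubiquitin, alpha-tubulin and beta-tubulin from top to bottom; filled circles are the 2 elf18 libraries, open squares the 2 mock libraries, red marks members and grey marks relatives that are not. In mock RNA the relatives lie to the right of the dashed line at 50%, from 56.8% for UBQ6 to 90.0% for TUA1 in the sum of both libraries, and the members lie to its left with the exception of UBQ4 in 1 library. For the summed mock counts this split is set by the rule that chose the members.

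Some smaller families were split in this way and others were not. Both genes at the minimum for BiP, the Hsp70 chaperone of the endoplasmic reticulum, were members (BIP1 at 18.9% and BIP2 at 26.3%), as were both genes of UAP56, an RNA helicase of messenger RNA export (UAP56a at 23.8% and UAP56b at 19.5%). HSP81-3, a cytosolic HSP90 chaperone gene, had 27.7%, and its relative HSP81-2 had 61.5%. The vacuolar sorting receptor genes VSR3 and VSR4 had 43.8% and 26.1%, and VSR1 had 86.0%. Disease resistance genes with RPP symbols were grouped by symbol only, and whether they are close relatives was not tested. Of these, RPP1 (49.1%), RPP4 (39.3%) and RPP8 (34.2%) were members, and RPP5 (54.5%) and RPP13 (84.8%) were not. These families, the RPP genes, the tubulins and the ubiquitins were singled out after the values had been seen, so their counts describe the members and test nothing.

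Members also lay beside one another in the genome. Of the 211 members in the locus table, 40 (19.0%) had another member as a direct neighbour, against 104 of 6717 other genes at the minimum (1.55%). The 21 adjacent pairs included VSR3 with VSR4, TUA3 with TUA5, TUB2 with TUB3, the cytochrome P450 genes CYP72A11 (27.5%) and CYP72A13 (48.1%), and AT1G07920 with AT1G07930. Within 3 loci on either side the shares were 23.2% of members and 4.21% of the others.

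By words in symbols and synonyms, the class of chloroplast or photosystem genes held 8 members, the photosynthesis genes above, of 130 genes at the minimum (6.15%), and that of ubiquitin or F-box genes 9 of 79 (11.4%), among them UPL2, a ubiquitin ligase, and the conjugating enzyme gene UBC35. There were 3 of 269 named kinase genes (1.12%), MPK11, CPK21 and CKB3, and 2 of 92 named transcription factor or zinc finger genes (2.17%). Ribosomal proteins by name gave 2 of 57 (3.51%), RPS18C and RPS28, and RNA-binding or splicing genes 1 of 22 (4.55%), RBP47C. No member came from 62 phosphatase, 84 transporter or 18 arabinogalactan genes. These values stand beside 3.10% over all genes at the minimum. Among the members 117 had no symbol beyond the locus ID. Of the 5 genes at the minimum whose footprint values were blank, 4 were members and none of those 4 was in the locus table. They were AT1G70782 (23.9%), AT2G18162 (44.7%), AT3G02468 (48.4%) and AT3G62422 (15.8%). Their locus IDs are close in number to those of AT1G70780, bZIP2 (AT2G18160), SAMDC (AT3G02470) and BZIP53 (AT3G62420). Of these, AT1G70780 and BZIP53 are themselves members, and bZIP2, SAMDC and BZIP53 are on the list of upstream reading frame genes below. Whether the 4 loci overlap these or other counted genes was not tested, so their exon counts may not be separate from those of such genes.

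Genes known for regulatory upstream reading frames gave 3 members of 13 at the minimum, from a list of 22. They were TBF1 (mock share 40.3%, 38.5% to 42.1%), listed under the symbol HSF4, a transcription factor gene of growth and defence; BZIP53 (41.0%), a bZIP transcription factor gene; and AT5G09460 (44.6%). The median share of the 13 was 71.9%, under the median of 86.9% over all genes at the minimum. KIN2 (24.1%), a small cold-induced protein gene, was the 1 member of 4 measured cold-stress genes. None of the genes at the minimum was a member among 8 clock, 16 splicing factor, 8 arabinogalactan, 3 metallothionein, 5 signalling peptide, 9 JAZ repressor, 7 trehalose phosphate synthase and 3 lipid transfer or defensin genes.

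TBF1 had 146 and 112 exon CPM in the elf18 libraries and 133 and 110 exon CPM in the mock libraries, values that overlapped. Its coding share was 46.4% and 59.0% with elf18 and 38.4% and 44.5% in mock, higher in both elf18 libraries. Footprints on its coding sequence stood at 113 and 125 CPM with elf18 and 101 and 101 CPM in mock. Neither change passed the test, at a log2 fold change of 0.23 ± 0.20 for RNA (standard error, adjusted p = 0.785) and 0.33 ± 0.28 for footprints (adjusted p = 1.0). Leader reads of TBF1 and of the reporter, which carries the same leader, cannot be told apart, so its exon counts and coding share hold both. BZIP53 had 264 and 186 exon CPM with elf18 and 168 and 166 in mock, and AT5G09460 had 7.01 and 0 exon CPM with elf18 and 18.9 and 20.0 in mock.

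With elf18, the RNA of 6 members rose and that of none fell. They were MPK11, a MAP kinase gene; XTH18, for an enzyme that cuts and rejoins cell wall xyloglucan; AT4G25670; EDA39, also called IQM1, for a protein with a calmodulin-binding IQ motif; IGMT4, for an indole glucosinolate methyltransferase; and GSTF6, for a glutathione S-transferase. That is 2.79% of the 215 members tested on exon counts, with a Benjamini-Hochberg adjusted p under 0.05 over 15870 genes in the quasi-likelihood test of edgeR. In whole leaves, fewer cells of a type and less RNA per cell cannot be told apart. Over all genes tested 3.04% rose and 0.158% fell, and over genes with at least 400 mock exon counts 5.61% rose and 0.36% fell. The median log2 change of the members was -0.15, beside -0.08 over the genes at the minimum. At an unadjusted p under 0.05, 11 members were higher and 16 lower; DESeq2 called 12 risen and 16 fallen, and limma voom 6 and 2.

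MPK11 had 145 and 163 exon CPM in the elf18 libraries and 35.1 and 40.8 in the mock libraries. XTH18 had 1023 and 789 exon CPM with elf18 and 221 and 279 in mock. In neither gene did the groups overlap, and the changes were 2.17 ± 0.20 (adjusted p = 0.00382) and 2.00 ± 0.17 (adjusted p = 0.00297) on the log2 scale by edgeR. EDA39 had 762 and 675 exon CPM with elf18 and 208 and 227 in mock, a log2 change of 1.87 ± 0.11. IGMT4 had 529 and 580 with elf18 and 189 and 173 in mock, a log2 change of 1.77 ± 0.13. These are 3.65-fold and 3.40-fold rises. GSTF6 had 473 and 461 exon CPM with elf18 and 130 and 176 in mock (log2 1.76 ± 0.17), and AT4G25670 had 195 and 252 with elf18 and 69.4 and 63.9 in mock (log2 1.90 ± 0.20). On coding-sequence counts of the same RNA, all of these except AT4G25670 passed, 5 of 215 members beside 2.59% of all genes tested. The mock coding counts in that test also chose the members, so it adds no independent support; the mock exon counts of the exon test entered the rule too, as its minimum and as the lower term of the coding share. XTH18 kept its share near the bound, at 47.1% and 45.2% with elf18 and 47.2% and 51.8% in mock. MPK11 lay at 64.8% and 60.5% with elf18 and 41.7% and 56.8% in mock, and so was above 50% in both elf18 libraries.

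Footprints, which had no part in choosing the members, gave 5 risen of 206 members tested and 0 fallen by edgeR with adjusted p. Over all 14446 genes tested 2.59% rose and 0.166% fell, and over the genes at the minimum 4.62% and 0.332%. The 5 were the RNA risers other than AT4G25670. XTH18 had 385 and 394 footprint CPM with elf18 and 73.6 and 111 in mock, a log2 change of 2.17 ± 0.24 (adjusted p = 0.000179). EDA39 had 543 and 602 with elf18 and 114 and 193 in mock (log2 2.00 ± 0.24), and MPK11 had 115 and 150 with elf18 and 30.1 and 32.6 in mock (log2 2.17 ± 0.34). In each of these genes both elf18 libraries lay above both mock libraries.

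IGMT4 had 292 and 234 footprint CPM with elf18 and 87.3 and 102 in mock (log2 1.57 ± 0.24). GSTF6 had 94.0 and 177 with elf18 and 31.8 and 35.0 in mock (log2 2.12 ± 0.38, adjusted p = 0.00732). Its call depended on 1 library: without elf18 footprint replicate 2 the change was 1.62 with an adjusted p of 0.147 by edgeR. AT4G25670 had 46.6 and 80.0 footprint CPM with elf18 and 38.3 and 18.3 in mock, also without overlap, and did not pass (log2 1.25 ± 0.53, adjusted p = 0.508); it passed without mock footprint replicate 1 (1.91, adjusted p = 0.0362). KIN2 had 24.0 and 12.1 footprint CPM with elf18 and 68.8 and 48.8 in mock, and was not called (adjusted p = 0.288). For footprints 7 members were higher and 5 lower at an unadjusted p under 0.05. DESeq2 called 5 risen and 5 fallen (CYP71B20, KIN2, LHCB2.2, CAB3 and CAB2), and limma voom called 5 and 1.

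**Figure D3:**
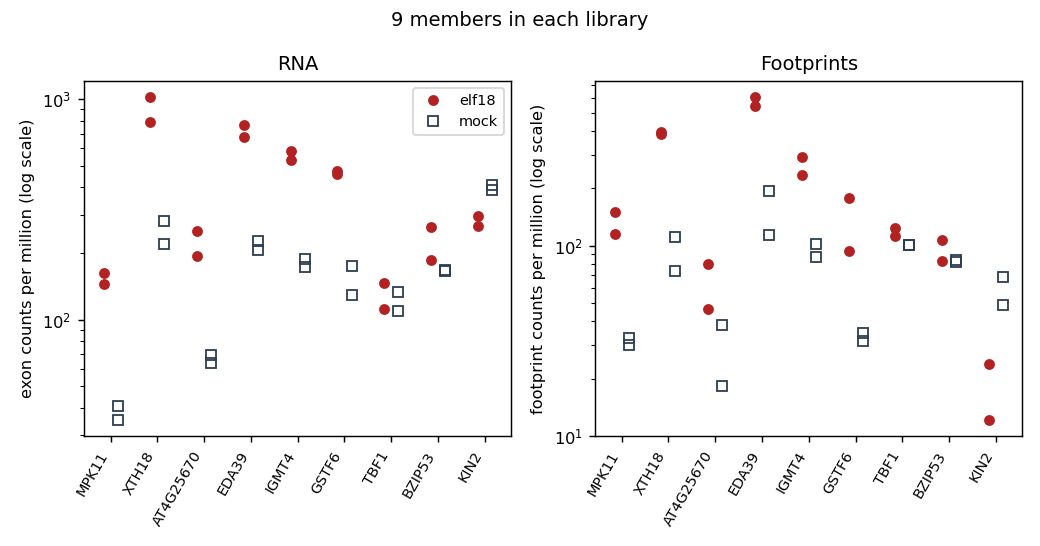
Exon CPM in RNA (left panel) and footprint CPM on coding sequence (right panel), both on log axes, for 9 members; filled circles are the 2 elf18 libraries and open squares the 2 mock libraries. In the RNA panel the first 6 genes have both elf18 values above both mock values, and in the footprint panel KIN2 has its elf18 values, 24.0 and 12.1, below its mock values.

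A change in translational efficiency, that is in footprints relative to RNA, was tested as an assay by treatment interaction in the 8 libraries. Its mock RNA coding counts also entered the choice of members. No member of 211 tested was called in either direction by edgeR, and none of all 16177 genes was, so the background is 0.0% on both sides. At an unadjusted p under 0.05, 5 members were higher and 6 lower. DESeq2 called 1, AT1G61300, and limma voom 0. AT1G61300 had RNA coding counts of 2 and 0 with elf18 and of 111 and 85 in mock, so its ratio with elf18 rests on 2 reads.

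**Figure D4:**
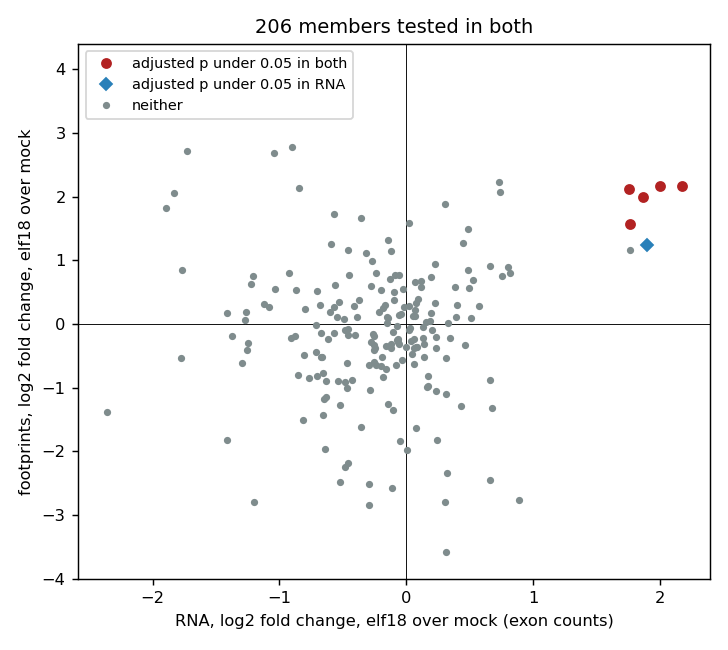
Log2 fold change with elf18 over mock in footprints (vertical axis) against that in RNA exon counts (horizontal axis) for the 206 members tested in both; red circles passed in both, the blue diamond passed in RNA only and grey points in neither. The 5 red genes lie between 1.76 and 2.17 on the RNA axis and between 1.57 and 2.17 on the footprint axis, and the grey points spread more widely along the footprint axis than along the RNA axis.

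How many footprints the members had for their RNA was read from the elf18 libraries, which did not enter the rule, as footprints over RNA on coding sequence in CPM. The log2 ratios and their test used libraries further scaled by TMM, so they lie somewhat apart from the log2 of the CPM ratios. Of 211 members tested, 17 had a lower ratio than an even one on that scale and 3 a higher one by edgeR with adjusted p, which is 8.06% and 1.42%. Among all 16177 genes 2.68% were lower and 2.95% higher, and among genes at the minimum 6.18% and 6.16%. With the lysate as a replicate block, 21 were lower and 7 higher. The median log2 ratio of the members was -0.29, and that of the genes at the minimum was 0.01. The medians differed with depth: for genes with at least 2000 mock exon counts the medians were -0.88 over 58 members and -0.15 over 1677 others. For those with 1000 to under 2000 counts they were 0.24 over 48 members and 0.02 over the others, and for those with 400 to under 1000 counts -0.20 over 105 members and 0.12 over the others. The members had the lower median in the deepest and the shallowest of these ranges and the higher one in the middle range.

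All 8 photosynthesis members were among the 17. RBCS2B had ratios of 0.158 and 0.144 in the elf18 lysates and 0.122 and 0.215 in the mock lysates, with a log2 ratio in elf18 leaves of -2.88 ± 0.25 (adjusted p = 2.12e-06 by edgeR). CAB1 had 0.186 and 0.180 with elf18 and 0.212 and 0.230 in mock (log2 in elf18 leaves -2.61 ± 0.12). CAB2, CAB3, RBCS3B and RBCS1B had log2 ratios of -2.11, -2.09, -2.06 and -1.87 in elf18 leaves, and LHCB2.1 and LHCB2.2 had -1.19 and -0.98. Low ratios were not particular to the genes with a low share. The relatives outside the members had log2 ratios of -2.55 for LHB1B1, -2.70 for LHB1B2 and -1.67 for RBCS1A, each called lower by the same test. LHCB2.3 had -0.40 and was called lower too. Without the 8 genes the median of the members with at least 2000 counts was -0.68 over 50 genes.

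Other members with few footprints for their RNA included genes of small proteins. RTFL17, of a family of small plant peptides, had 11.9 and 8.16 footprint CPM with elf18 and 7.79 and 6.4 in mock. Its ratios were 0.177 and 0.143 with elf18 and 0.132 and 0.127 in mock, so the low value was steady over the 4 lysates (log2 in elf18 leaves -2.78 ± 0.53), although limma voom did not call it (adjusted p = 0.0669). KIN2 had ratios of 0.355 and 0.0919 with elf18 and 0.559 and 0.435 in mock (log2 in elf18 leaves -2.63 ± 0.42). AT1G27330 (log2 -5.41), AT5G59613 (-4.52) and AT2G05220 (-3.21) had the lowest values beside these. They rested on few footprints: AT5G59613 had 3.06 and 0.19 footprint CPM with elf18 and 22.1 and 2.83 in mock. None of these 3 passed with limma voom, where adjusted p was 0.087, 0.0766 and 0.133 in the same order. AT5G59613 also did not pass without elf18 footprint replicate 2 (adjusted p = 0.107). The same library decided AT1G27330 (0.110), as did RNA elf18 replicate 1 (0.0761), and footprint elf18 replicate 1 decided AT2G05220 (0.098). AT2G27720 (-2.49), AT5G27700 (-2.18), ARFA1D (-1.44), for a small GTPase of vesicle traffic, and RPS18C (-1.41), for a ribosomal protein, made up the rest. None of these 4 passed with limma voom either. Each also lost its call when single libraries were left out: AT2G27720 without footprint elf18 replicate 1 (adjusted p = 0.0783), AT5G27700 without that library (0.0847) or RNA elf18 replicate 1 (0.0548), ARFA1D in 4 of 8 such fits and RPS18C in 6 of 8.

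UPL2, for a large ubiquitin ligase, had more footprints than its RNA share. Its ratios were 5.96 and 4.24 in the elf18 lysates and 3.28 and 3.40 in the mock lysates, all above 1, with a log2 ratio in elf18 leaves of 2.11 ± 0.28 (adjusted p = 0.000174 by edgeR). Hsp70-15, a heat shock protein 70 gene next to its relative HSP91, had 2.69 and 3.38 with elf18 and 2.26 and 2.37 in mock (log2 1.44 ± 0.35). Its call was lost without elf18 footprint replicate 1 (adjusted p = 0.0581) or replicate 2 (0.171). For AT1G61300, 182 footprint counts stood beside 2 RNA coding counts, a ratio of 174 over the pooled libraries with a 95% exact binomial interval of 47.5 to 1449. That interval covers counting error only and not the larger spread between replicates.

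**Figure D5:**
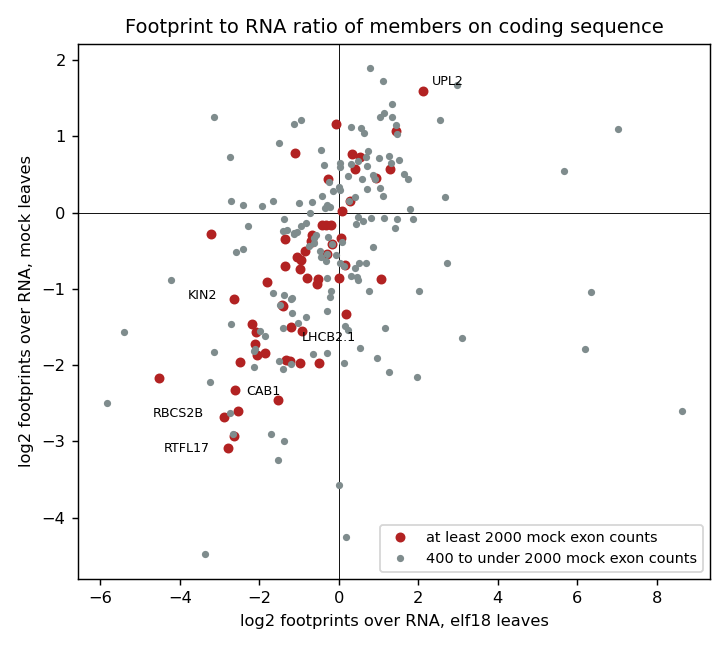
Log2 of footprints over RNA on coding sequence in mock leaves (vertical axis) against elf18 leaves (horizontal axis) for 211 members, where 0 is an even ratio after TMM scaling. Red points have at least 2000 mock exon counts and grey points 400 to under 2000. CAB1, RBCS2B and RTFL17 lie low on both axes and UPL2 high on both, while the grey points reach farther along the elf18 axis, where some ratios rest on few reads.

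In mock leaves, given as a description because the mock coding counts chose the members, the median log2 ratio was -0.42, and -0.08 over the genes at the minimum. AT5G60390, the ninth most abundant member (mock share 44.0%), had ratios of 0.978 and 0.948 with elf18 and 0.987 and 0.988 in mock, and UBQ10 had 1.07 and 0.919 with elf18 and 0.832 and 0.819 in mock. A low coding share thus stood beside both low and even ratios.

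Pairs of replicates far apart made up a higher share of the members than of the other genes. A library with at most 1 count beside a replicate with at least 20 was found for 17 of 211 members in elf18 footprints (8.06%) and for 28 in mock footprints (13.3%). Among the other genes at the minimum the shares were 0.967% and 2.34%. In elf18 RNA coding counts it was 11 of 215 members (5.12%) and 0.997% of the others. All of these are coding counts, while members and other genes share only the exon minimum. The rule gives members fewer mock RNA coding counts for their exon counts. Coding depth was not matched, so its part in these differences was not tested. A ratio can also rest on few reads in both replicates. BIP1 had RNA coding counts of 3 and 3 with elf18 and of 58 and 53 in mock. Its share was 1.62% and 5.26% with elf18 and 15.1% and 26.1% in mock, and its footprint to RNA ratio was 67.2 and 47.1 with elf18 and 1.42 and 1.73 in mock. It did not pass in elf18 leaves (log2 5.67 ± 1.74, adjusted p = 0.0752 by edgeR).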

How the data were processed

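RNA-seq and ribosome footprint libraries were analysed from 2 deposited tables of raw counts per gene, one over exons (4 RNA libraries) and one over coding sequences (8 libraries). These counts were left unnormalised by the authors, judging from whole numbers with unequal totals. Programs named in the submitters' processing notes were CASAVA 1.8.2, Bowtie2 2.0 and HTSeq, on build TAIR10. The members, lists, families and tests were chosen with earlier results of these data known. Symbols and neighbours came from a locus table of assembly TAIR10.1, which held 211 members; classes came from words in symbols and synonyms. Protein length was not analysed here.

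Every fit covered the whole table (R 4.3.3, edgeR 4.0.16: TMM, filterByExpr with a minimum of 10 counts, glmQLFit, glmQLFTest, Benjamini-Hochberg, 0.05), with 2 residual degrees of freedom for 4 libraries and 4 for all 8. Errors are approximate standard errors of log2 values, computed from the size of the change and its F statistic. The p-values rest on the spread between these lysates, estimated with information from all genes. The main fit of all 8 libraries did not use which RNA and footprint libraries share a lysate. The scripts were tested on simulated data. DESeq2 1.42.0, limma 3.58.1 voom, another normalization, other filters, a replicate block and leaving out each library were alternatives. RNA and footprints of a lysate were paired by sample ID, since part of each lysate went to each; their deviations from group means correlated at r = -0.0015 with elf18 and -0.011 in mock. Title numbers are not stated to pair elf18 with mock. Named by rule were TBF1, the 10 most abundant members, the 4 lowest shares, those nearest each bound, called members (up to 8 each way for elf18, 6 each way for the ratio) and up to 4 per list; other names were chosen after their values were seen. In depth, 3 counts equal 0.195 to 0.38 CPM over exons and 0.447 to 0.631 CPM in footprints. Chi-square per degree of freedom between replicates was 61.0 and 13.0 for elf18 and mock RNA, and 24.0 and 31.7 for elf18 and mock footprints. The labels mention no molecular identifiers.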

Additional observations from a re-analysis of the deposited data

How the results depend on the processing

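The number of members followed its bounds: 358 with a minimum of 200 counts, 125 with 800, 103 with an upper share of 0.4 and 459 with 0.6. Members with risen RNA numbered 12 by DESeq2 and 6 to 22 when 1 library was left out; those with fallen RNA numbered 16 by DESeq2, 2 by limma voom, 1 with every gene that has a count, 1 with a mean of at least 50 counts, 4 with a replicate block and 0 to 40 when 1 library was left out. A fit without an elf18 RNA library takes its spread from the mock pair, so its lone elf18 library is assumed to vary like mock. Members with risen footprints numbered 4 to 12 when 1 library was left out; those with fallen footprints numbered 5 by DESeq2, 1 by limma voom, 1 with a replicate block and 0 to 2 when 1 library was left out. For translational efficiency DESeq2 called 1 member higher. Higher footprint to RNA ratios in elf18 leaves numbered 11 by DESeq2, 5 by limma voom, 6 with every gene that has a count, 7 with the lysate as a replicate block and 2 to 9 when 1 library was left out; lower ones 29 by DESeq2, 10 by limma voom and 14 to 19 when 1 library was left out. The cause of these shifts was not tested. For genes named by rule, 394 alternative values kept their direction and side of the threshold, 11 no longer passed, 1 newly passed and 0 reversed; the 6 members with risen RNA passed under every alternative run on exon counts. With 2 libraries per group and few footprints on thin members, a difference in them was often not detectable at this depth.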
